A study of Caenorhabditis elegans with 12 samples.

Results

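The genes described here are 6 components of the target of rapamycin (TOR) pathway of Caenorhabditis elegans: the kinase gene let-363, the complex subunit genes daf-15 and rict-1, the GTPase genes rheb-1 and raga-1, and the S6 kinase gene rsks-1. They were chosen by name, and all 6 were among the 22113 genes quantified and the 16371 tested. RNA was measured by polyA sequencing of whole animals in 12 libraries, with 3 libraries in each of 4 groups. The groups were daf-2(e1370) larvae (strain CB1370) and daf-2(e1370);daf-42(ys54) larvae (strain LJ2703), each harvested 52 h and 60 h after egg laying. Eggs were laid over 2 h at 15 °C on OP50 bacteria, and the animals were then kept at 25 °C, a temperature at which the daf-2 allele leads into dauer. Every group carried e1370, so there was no animal with a wild-type insulin receptor to compare with. Double mutants collected at 60 h were partly alive and partly dead L2d larvae, the stage before dauer, and the effects of genotype and of larval death on that group cannot be told apart. The labels do not say whether the 3 libraries of a group came from separate cultures, so the p-values measure only the spread between these libraries, which may be technical.

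TOR is a protein kinase that couples nutrients and insulin signals to growth. It works in 2 complexes: complex 1 is defined by the Raptor protein, is switched on by Rag and Rheb GTPases and acts on translation and autophagy through targets such as S6 kinase, and complex 2 is defined by Rictor and acts on AGC kinases such as SGK. In C. elegans the Raptor gene daf-15 was found through its dauer phenotype: mutants arrest as dauer-like larvae. The Rictor gene rict-1 is known for its roles in fat storage and growth, and its mutants have been linked to dauer formation as well.

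Library totals ran from 30011686 to 43519410 estimated counts. The targeted gene daf-42 was detected in every library. Its abundance in CPM (counts scaled to library size) was 1011, 1853 and 2078 in daf-2 at 52 h, against 879, 685 and 777 in the double mutant. At 60 h it was 969, 1960 and 532 CPM in daf-2, against 273, 74.9 and 149 in the double mutant. The double mutant libraries were the lower ones at both times, with a log2 fold change of -1.08 at 52 h (edgeR adjusted p = 0.838) and -2.80 at 60 h (edgeR adjusted p = 0.00277). At 60 h, 18.8% of all genes tested were lower in this way, and the share at 52 h is not given here. The abundance-weighted transcript length of daf-42 was 4885 bases. Among genes of 4000 bases and over, the median log2 fold change at 60 h was -1.25, and 55.2% were called lower. A value of daf-42 corrected for length is not given here. The molecular lesion of ys54 is not given in the sources used here either, so the RNA level of daf-42 is a limited check of the labels. The marker genes elt-2 (intestine), unc-119 (neurons), myo-3 (muscle), dpy-7 (hypodermis) and pgl-1 (germ line) were detected in all 4 groups, and the adult yolk genes vit-2 and vit-6 reached at most 0.0618 TPM (transcript abundance scaled by length and library).

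One property of the libraries touches nearly every result below. Genes of long transcripts and genes of short transcripts shifted against each other from library to library. A length index was taken in each library as the median log2 deviation of genes of 4000 bases and over minus that of genes under 1000 bases. It was 0.02, 0.39 and 0.51 in daf-2 at 52 h and 0.71, 0.30 and 1.04 in the double mutant at 52 h. It was 0.25, 1.37 and -0.60 in daf-2 at 60 h and -0.19, -2.59 and -1.35 in the double mutant at 60 h. The double mutant at 60 h thus held the 2 lowest libraries, and the 60 h libraries of each genotype were far apart from each other. The 6 genes fall on both sides of the median length of 1207 bases of the genes tested. The abundance-weighted transcript length was 8541 bases for let-363, 5729 for daf-15, 4547 for rict-1 and 3050 for rsks-1, but 1273 for raga-1 and 1192 for rheb-1. The main differences below are therefore given as fitted and again with an offset that removes the trend with length from each library. What produces the trend was not tested. In whole animals, fewer cells of a type and less RNA per cell cannot be told apart.

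The kinase gene let-363 (WBGene00002583, chromosome I, 5245743 to 5263424, plus strand, WBcel235) encodes TOR itself, the catalytic subunit of both complexes. Its abundance was 83.5, 99.4 and 111 CPM in daf-2 at 52 h and 134, 94.8 and 161 CPM in the double mutant at 52 h. At 60 h it was 134, 198 and 71.7 CPM in daf-2 and 88.4, 22.0 and 37.5 CPM in the double mutant. All 3 double mutant libraries at 60 h lay below all 3 at 52 h, as was the case for 26.1% of all genes tested, while at 60 h the highest double mutant library lay above the lowest daf-2 library. let-363 fell in the double mutant between 52 h and 60 h, by 1.40 on the log2 scale (SE 0.465, edgeR adjusted p = 0.0315). Against daf-2 at 60 h, the double mutant was lower, at -1.45 on the log2 scale (SE 0.465, edgeR adjusted p = 0.0318). With the length offset, both changes turned to the other sign: 0.32 for time in the double mutant (SE 0.133, edgeR adjusted p = 0.0701) and 0.13 for genotype at 60 h (SE 0.133, edgeR adjusted p = 0.466). Over the 12 fits that each left out 1 library, the fall in the double mutant ran from -2.12 to -1.05. The difference at 60 h ran from -2.17 to -1.02, and each of these 2 results was called in 8 of the 12. Here and below, such counts include fits without a library of the groups not compared, which bears on a call only through scaling, filtering and the shared spread. The fall was lost without double mutant replicate 1 or 3 at 52 h, or 2 or 3 at 60 h. The difference at 60 h was lost without daf-2 replicate 1 or 2 or double mutant replicate 2 or 3 at 60 h. The other differences of let-363 did not pass the test. They were 0.41 for genotype at 52 h (edgeR adjusted p = 1) and 0.46 for time in daf-2 (edgeR adjusted p = 0.483). Of its 2 annotated transcripts, which differ by a few bases in length, the one named b carried 92.9% to 93.7% of the gene's TPM as group means.

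daf-15 (WBGene00000911, chromosome IV, 9386208 to 9394979, plus strand) encodes Raptor, the subunit that defines complex 1 and brings substrates to the kinase. It had 78.3, 76.8 and 82.7 CPM in daf-2 at 52 h and 110, 69.6 and 112 CPM in the double mutant at 52 h. At 60 h it had 102, 137 and 54.2 CPM in daf-2 and 74.9, 16.6 and 29.3 CPM in the double mutant. The groups overlapped in every comparison. At 60 h the overlap came from double mutant replicate 1 and daf-2 replicate 3. daf-15 fell in the double mutant between the times, by 1.27 on the log2 scale (SE 0.468, edgeR adjusted p = 0.0458). Between genotypes at 60 h its difference of -1.28 just missed the threshold (SE 0.469, edgeR adjusted p = 0.0513), and DESeq2 called it (adjusted p = 0.0202). Without 1 library, the fall ran from -2.08 to -0.91 and was called in 4 of 12 fits, and the difference at 60 h ran from -2.08 to -0.90 and was called in 2 of 12. With the offset these differences were 0.03 for time in the double mutant (edgeR adjusted p = 0.898) and -0.11 for genotype at 60 h (edgeR adjusted p = 0.627). In daf-2 the difference between the times was 0.30 (edgeR adjusted p = 0.666), and between genotypes at 52 h it was 0.29 (edgeR adjusted p = 1). The transcript named a carried 89.5% to 93.6% of the TPM of daf-15 as group means. The gene shares 107 exonic bases with the antisense collagen gene col-121. Whether the counting used strand is not given in the sources used here, so reads of these bases cannot be told apart, although no library had reads that were split between genes.

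rict-1 (WBGene00009245, chromosome II, 13098239 to 13116810, minus strand) encodes Rictor, the subunit that defines complex 2. It had 28.9, 49.3 and 53.7 CPM in daf-2 at 52 h and 70.6, 53.9 and 76.0 CPM in the double mutant at 52 h. It had 49.9, 101 and 35.6 CPM in daf-2 at 60 h and 42.1, 13.8 and 23.9 CPM in the double mutant at 60 h. At 52 h the double mutant libraries all lay above those of daf-2, by a small margin (8.53% of all genes tested were higher in this way). In the double mutant the 3 libraries at 60 h all lay below the 3 at 52 h, as was the case for 26.1% of all genes tested. The fall in the double mutant between the times was 1.33 on the log2 scale (SE 0.435, edgeR adjusted p = 0.0293). With the replicate number as a block, it was lost (edgeR adjusted p = 0.0521). At 60 h rict-1 was lower in the double mutant than in daf-2, at -1.23 (SE 0.434, edgeR adjusted p = 0.0449). That difference ran from -1.72 to -0.64 when 1 library was left out, with the smallest size without daf-2 replicate 2 at 60 h, and was called in 3 of 12 such fits. The fall over time ran from -1.83 to -1.02 and was called in 8 of 12. With the length offset, the values were -0.16 (edgeR adjusted p = 0.451) and -0.11 (edgeR adjusted p = 0.62). The higher level in the double mutant at 52 h was 0.60 as fitted (SE 0.428, edgeR adjusted p = 1) and 0.35 with the offset (SE 0.155, edgeR adjusted p = 0.535), and did not pass the test in either fit. In daf-2 between the times the difference was 0.50 (edgeR adjusted p = 0.403).

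rict-1 has 3 annotated transcripts, of which the shortest, named c, has 2568 bases and the most abundant, named a, has 5003 bases. Transcript c carried 31.2% ± 4.85 of the gene's TPM in daf-2 at 52 h (SD, n = 3) and 34.8% ± 7.62 in the double mutant (SD, n = 3). At 60 h it carried 28.4% ± 4.59 in daf-2 (SD, n = 3) and 36.7% ± 5.12 in the double mutant (SD, n = 3). Its libraries overlapped between all of these groups. Transcript a carried 49.1% ± 6.92 in the double mutant at 60 h (SD, n = 3) and 60.5% to 63.5% in the other groups as means. The 3 double mutant libraries at 60 h, from 41.4% to 54.85%, all lay below the 9 libraries of the other groups, which ran from 55.95% to 69.3%. Transcript b, of nearly the same length as a (5008 bases), carried 14.2% ± 9.22 in the double mutant at 60 h (SD, n = 3). In the other groups b carried 4.76% to 9.60% as means, and its libraries overlapped between the groups. The lower share of a thus went in part with a higher mean share of b. How many of all transcripts separate in this way is not given here. Shares of transcripts were not tested. A further 37 exonic bases of rict-1 are shared with the collagen gene col-86 on the same strand.

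On the CPM scale the GTPase genes varied little over the 12 libraries. rheb-1 (WBGene00010038, chromosome III, 9454163 to 9456030, minus strand) encodes Rheb, which activates complex 1 directly. It had 21.2, 18.2 and 17.8 CPM in daf-2 at 52 h and 18.1, 17.2 and 17.2 CPM in the double mutant at 52 h. It had 18.4, 15.6 and 19.5 CPM in daf-2 at 60 h and 18.1, 19.5 and 19.6 CPM in the double mutant at 60 h. The lowest and the highest library thus differed by only a few CPM, and no comparison passed the test, with log2 fold changes from -0.12 to 0.13 in the 4 comparisons of groups (the SE was 0.146 in each) and from -0.09 to 0.04 with the length offset. raga-1 (WBGene00006414, chromosome II, 11301359 to 11302776, plus strand) encodes a Rag GTPase that brings complex 1 to the lysosome when amino acids are at hand. It had 36.3, 38.2 and 39.8 CPM in daf-2 at 52 h and 37.3, 37.9 and 35.6 CPM in the double mutant at 52 h. It had 39.6, 34.2 and 47.0 CPM in daf-2 at 60 h and 38.8, 44.8 and 44.7 CPM in the double mutant at 60 h. Its log2 fold changes ran from -0.05 to 0.21, with an SE of 0.16 in each, and from -0.02 to 0.18 with the offset. Both GTPase genes lay higher in all 3 double mutant libraries at 60 h than in all 3 at 52 h, which held for 29.5% of all genes tested, by 0.13 for rheb-1 (edgeR adjusted p = 0.499) and 0.21 for raga-1 (edgeR adjusted p = 0.291). On the scale of log2(TPM + 1), where the median of all genes fell by 0.402 in that comparison, the same differences were -0.36 and -0.29. On log2(TPM + 0.1), where that median fell by 0.497, rheb-1 was called lower, at -0.38 (limma adjusted p = 0.0485), and raga-1 was not called. No direction is therefore given for either gene.

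rsks-1 (WBGene00012929, chromosome III, 11245120 to 11252281, plus strand) encodes the S6 kinase, a direct substrate of complex 1 that promotes translation. It had 137, 114 and 125 CPM in daf-2 at 52 h and 132, 124 and 161 CPM in the double mutant at 52 h. It had 174, 214 and 172 CPM in daf-2 at 60 h and 140, 67.2 and 117 CPM in the double mutant at 60 h. All 3 daf-2 libraries at 60 h lay above all 3 at 52 h, as for 25.5% of all genes tested, and above all 3 of the double mutant at 60 h, as for 18.8%. rsks-1 was lower in the double mutant at 60 h, at -0.79 (SE 0.256, edgeR adjusted p = 0.0331), which became -0.10 with the length offset (edgeR adjusted p = 0.672). Without 1 library it ran from -1.01 to -0.52, and it was called in 8 of 12 such fits. In daf-2 between the times the difference was 0.58 (SE 0.255, edgeR adjusted p = 0.101) as fitted and 0.53 with the offset (SE 0.163, edgeR adjusted p = 0.0171). The difference between the times in the double mutant was -0.36 as fitted (edgeR adjusted p = 0.261) and 0.46 with the offset (SE 0.163, edgeR adjusted p = 0.0421). With the offset, then, rsks-1 was higher at 60 h in both genotypes, and its difference in that change was -0.08 (edgeR adjusted p = 0.848). On log2(TPM + 1), rsks-1 was called lower over time in the double mutant, at -0.88 (limma adjusted p = 0.042). The median of all genes fell by 0.402 in that comparison. No direction is therefore given for rsks-1 over time in the double mutant. In daf-2, the offset moved the change between the times less for rsks-1 than for let-363, daf-15 and rict-1, which went from 0.46, 0.30 and 0.50 to 0.14, 0.07 and 0.31.

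**Figure D1:**
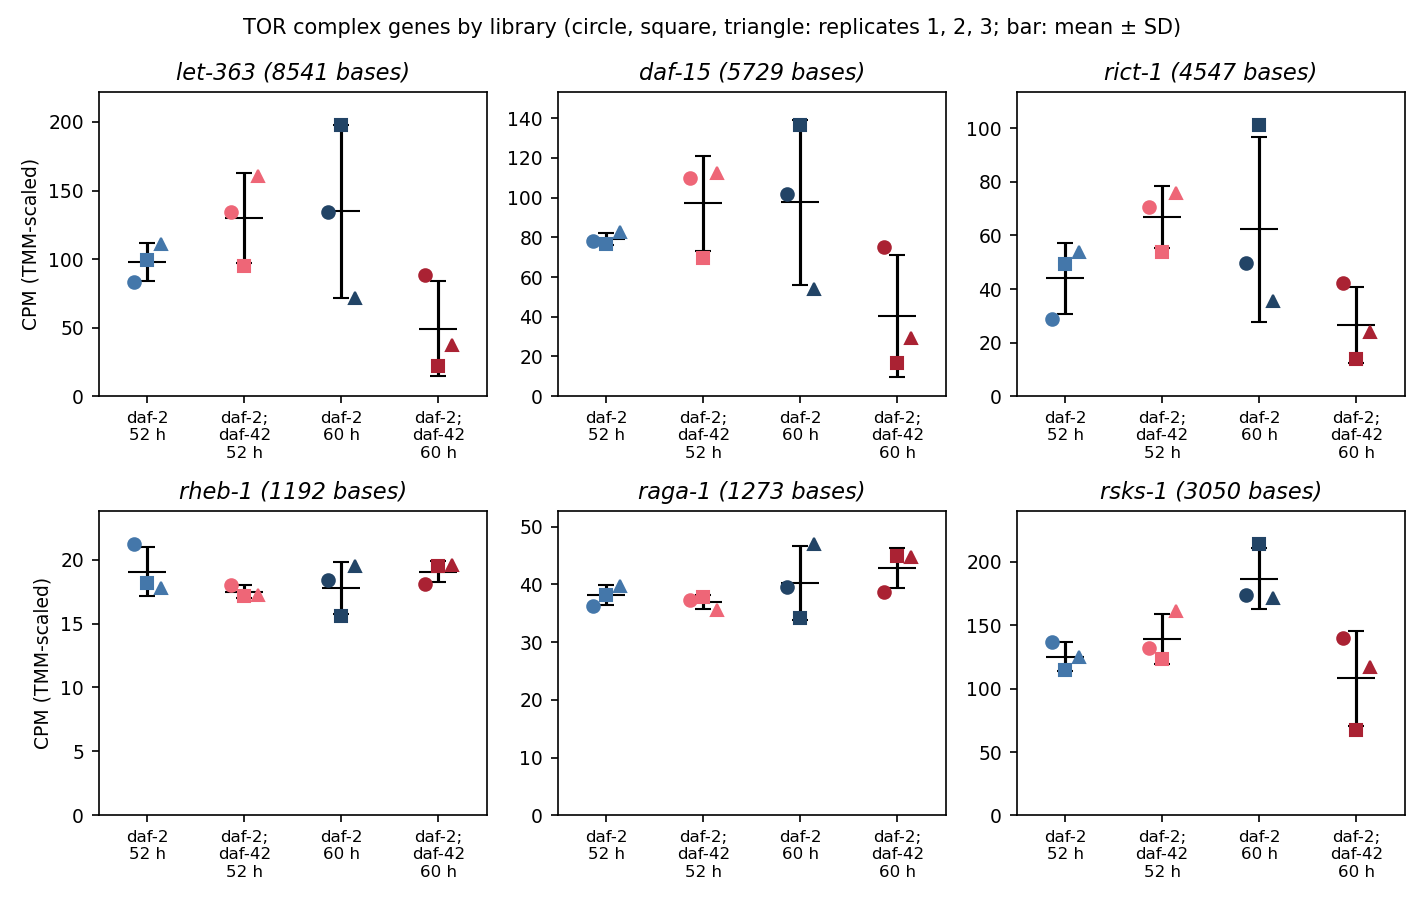
Each panel shows 1 gene, with its abundance in CPM (TMM-scaled, linear axis from 0) in each of the 12 libraries; circles, squares and triangles are replicates 1, 2 and 3, and the bars are the mean ± SD of 3 libraries. The long genes let-363, daf-15 and rict-1 spread widely at 60 h and are lowest in the second double mutant library (22.0, 16.6 and 13.8 CPM), whereas rheb-1 stays between 15.6 and 21.2 CPM.

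The 5 comparisons can be read against all genes tested. For genotype at 52 h, edgeR called 0 of 6 members (0 at an unadjusted p under 0.05, and 0 by DESeq2), where 0.635% of all genes tested were called. For genotype at 60 h it called 3 of 6, all lower in the double mutant, beside 34.4% of all genes in either direction and 17% lower. For time in daf-2 it called 0 of 6 (1 at an unadjusted p under 0.05, and 0 by DESeq2), beside 34.7% of all genes. For time in daf-2;daf-42 it called 3 of 6, all lower at 60 h, beside 41% of all genes in either direction and 18.6% lower. With the length offset it called 0 of 6 for genotype at 60 h, beside 34.9% of all genes. The offset fit called 1 of 6 for time in daf-2, beside 45.4%, and 1 of 6 for time in daf-2;daf-42, beside 37.8%, both of them rsks-1 at a higher level at 60 h. The genotype by time interaction asks whether the change over time differed between genotypes. For this interaction, the edgeR fit without the offset called 0 of 6 (4 at an unadjusted p under 0.05, and 2 by DESeq2), beside 9.52% of all genes. The interaction estimates were -1.86 for let-363 (SE 0.65, edgeR adjusted p = 0.08), -1.57 for daf-15 (adjusted p = 0.12), -1.83 for rict-1 (adjusted p = 0.0706) and -0.94 for rsks-1 (adjusted p = 0.0989), so a difference between the genotypes in these changes over time was not shown. With the offset they were 0.18, -0.04, -0.46 and -0.08. The calls also rested on single libraries. At 60 h, 0 members were called between genotypes without daf-2 replicate 1 or 2, or without double mutant replicate 2 or 3. Over time in the double mutant, 0 were called without its replicate 1 or 3 at 52 h, or without its replicate 2 or 3 at 60 h.

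**Figure D2:**
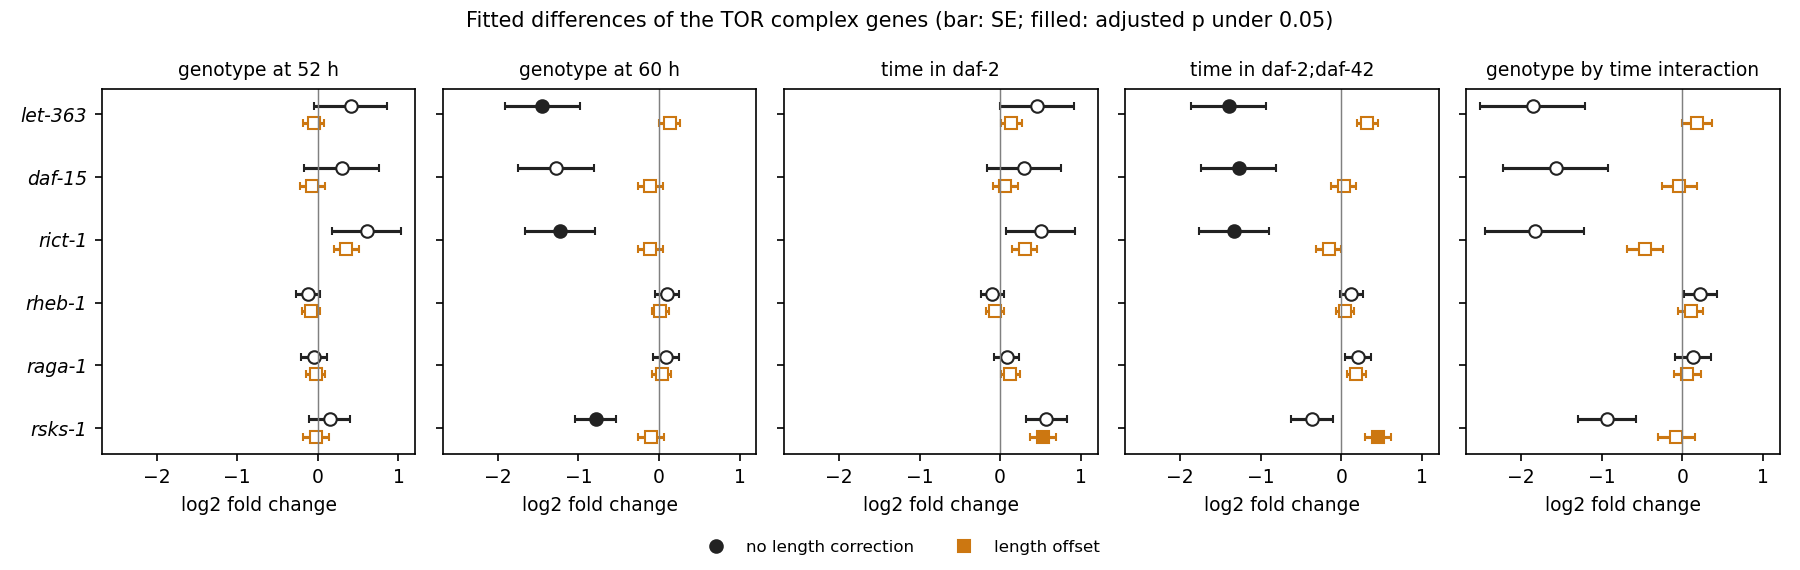
Fitted log2 fold changes of the 6 genes in the 5 comparisons, with SE bars; circles are the fit with no length correction, squares the fit with the length offset, and filled symbols have an edgeR adjusted p under 0.05. At 60 h let-363 sits at -1.45 as fitted and at 0.13 with the offset, while rheb-1 and raga-1 lie near 0 in both.

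For genotype at 60 h the members lay close to the medians of their length classes, and rsks-1 lay apart from its class in both comparisons over time. Between genotypes at 60 h, this median (log2) was 0.44 over the 6024 genes under 1000 bases, -0.02 over the 7025 genes from 1000 up to 2000 bases, -0.60 over the 2748 genes from 2000 up to 4000 bases and -1.25 over the 574 genes of 4000 bases and over. The 3 longest members, with -1.45, -1.28 and -1.23, lay close to the last of these medians, rsks-1 with -0.79 lay near that of its own class, and rheb-1 and raga-1 with 0.10 and 0.09 lay near that of theirs. In the longest class 55.2% of genes were called lower, and in the class under 1000 bases 7.92%. Over time in the double mutant, the median of the longest class was -1.34, and 70.6% of that class was called lower. There let-363, daf-15 and rict-1 had -1.40, -1.27 and -1.33, while rsks-1 had -0.36 beside a median of -0.67 in the class from 2000 up to 4000 bases. For time in daf-2 the median of the longest class was 0.25, beside 0.46, 0.30 and 0.50 for let-363, daf-15 and rict-1, and rsks-1 had 0.58 beside 0.07 in its class. With the offset, the medians of the longest class were -0.01 in both of the comparisons in which members fell. The offset is built to remove the trend with length, so such small medians follow from its construction and test nothing.

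**Figure D3:**
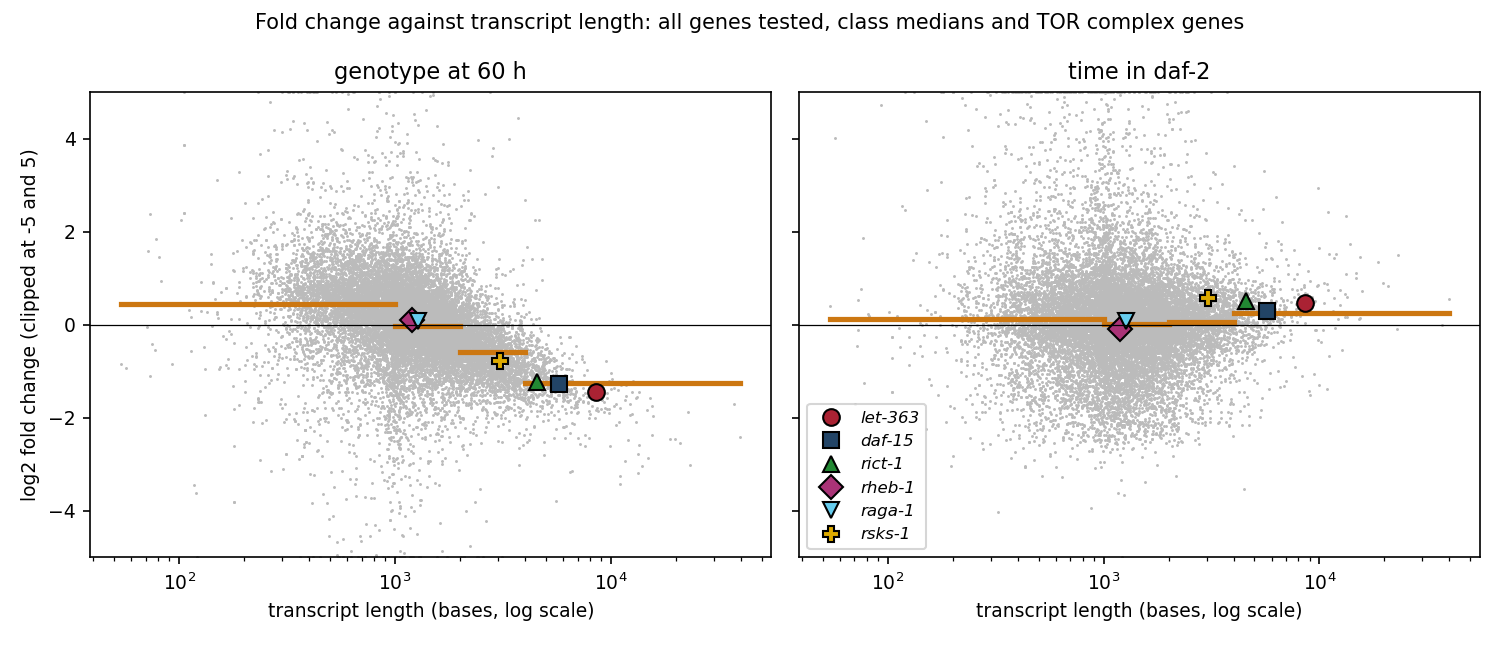
Log2 fold change (points outside the axis are drawn at its ends) against transcript length in bases (log axis) for all 16371 genes tested (grey), with the median of each length class as an orange bar and the 6 genes as coloured symbols. For genotype at 60 h the class medians step down from 0.44 to -1.25 and the 6 genes lie near the medians of their classes, and for time in daf-2 the medians stay between 0.01 and 0.25.

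The same pattern ran through the single libraries. The mean log2 deviation of let-363, daf-15 and rict-1 from their 12-library means was lowest in double mutant replicates 2 and 3 at 60 h, at -1.92 and -1.13, where the length index was -2.59 and -1.35. It was highest in daf-2 replicate 2 at 60 h, at 1.11, where the index was 1.37. Within daf-2 at 60 h, replicate 3 had a deviation of -0.33 and an index of -0.60. rsks-1 followed less closely, with 0.37, 0.67 and 0.35 in daf-2 at 60 h. The deviations of rheb-1 and raga-1 stayed between -0.22 and 0.17.

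**Figure D4:**
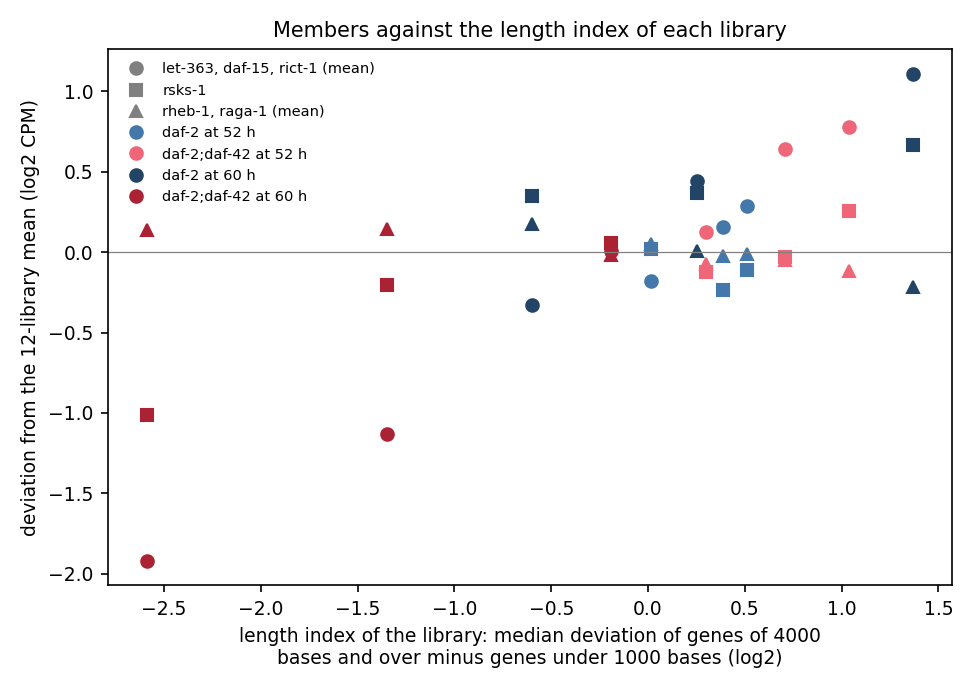
The mean log2 CPM deviation of let-363, daf-15 and rict-1 (circles), of rsks-1 (squares) and of rheb-1 and raga-1 (triangles) in each of the 12 libraries, coloured by group, against the length index of the library (log2). The 3 long genes run from -1.92 at an index of -2.59 to 1.11 at an index of 1.37, and the triangles stay between -0.22 and 0.17.

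At 60 h the 3 longest genes also had the widest spread between replicates of the 6. In daf-2 at 60 h the SD of log2 CPM was 0.74 for let-363, 0.68 for daf-15 and 0.77 for rict-1, and 0.17 for rheb-1 and 0.23 for raga-1, beside a median of 0.36 over all genes tested. rsks-1, with 0.18, was level with the short genes there. In double mutants at 60 h it was 1.01, 1.10 and 0.80 for the long genes, 0.55 for rsks-1, 0.06 for rheb-1 and 0.12 for raga-1, beside a median of 0.37. In daf-2 at 52 h this order did not hold, since daf-15 with 0.06 lay below rheb-1 with 0.14 and below raga-1 with 0.07. In the double mutant at 52 h it was 0.39 for daf-15. The counts of the 3 long genes ran from 444 to 6712 per library, and those of rheb-1 and raga-1 from 498 to 1868.

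Across the 12 libraries, which share these shifts, the log2 CPM of let-363 and daf-15 had a Pearson r of 0.99, let-363 and rict-1 of 0.96, and daf-15 and rict-1 of 0.92. After removal of the length trend from each library, r was 0.25, -0.25 and -0.40. rheb-1 and raga-1 had an r of 0.56, which was 0.11 after removal. These are descriptions over 12 libraries in 4 groups. Among 9012 genes that averaged 3 or more on the log2 CPM scale, those whose profile was most like that of let-363 were Y92H12A.5, daf-2 and ubr-5 (r from 0.996 to 0.999). Those most like daf-15 were pdzd-8, F45F2.10 and usp-48 (r from 0.995 to 0.999), and those most like rict-1 were atm-1, sym-4 and Y53F4B.21 (r from 0.991 to 0.994). All 9 are long, from 3480 to 9286 bases. For rheb-1 they were elpc-4, C50B8.6 and nspg-9 (r from 0.918 to 0.929), from 885 to 1103 bases long. For raga-1 they were abhd-11.2, nhr-86 and cyn-7 (r from 0.962 to 0.967), from 714 to 1386 bases long. For rsks-1 they were Y71G12B.31, Y69H2.10 and Y48C3A.20 (r from 0.962 to 0.969). With 1158 to 1877 bases, these last are shorter than rsks-1 itself.

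TPM is scaled by transcript length, so it allows levels to be ordered between genes. It does not remove the trend with length that differed between libraries: at 60 h let-363 ran from 1.41 TPM in the double mutant to 23.0 TPM in daf-2. The order of long against short genes below cannot be told apart from that trend. In daf-2 at 52 h the order was rsks-1 with 39.0 ± 2.03 TPM, raga-1 with 32.2 ± 2.65, rheb-1 with 17.4 ± 1.02, daf-15 with 12.7 ± 0.82, let-363 with 10.4 ± 1.86 and rict-1 with 9.69 ± 3.12 (SD, n = 3 each). The libraries of each of the first 3 did not overlap with those of the next gene, and daf-15 overlapped with let-363 and let-363 with rict-1. In the double mutant at 52 h and in daf-2 at 60 h, rsks-1 with 43.7 ± 8.87 and 55.4 ± 16.6 TPM was again above raga-1 with 31.2 ± 2.31 and 31.2 ± 0.82 (SD, n = 3), with no overlap, and the 4 genes below overlapped in their order. In the double mutant at 60 h, raga-1 with 25.4 ± 2.41 TPM and rsks-1 with 25.0 ± 12.04 overlapped (SD, n = 3). rheb-1 followed with 12.3 ± 1.59 TPM, overlapping with rsks-1 but not with the next gene, above daf-15 with 4.98 ± 4.49, rict-1 with 4.51 ± 2.98 and let-363 with 4.02 ± 3.41 (SD, n = 3). In each of the 4 groups, every library of rsks-1 and of raga-1 lay above every library of let-363, daf-15 and rict-1 on this scale.

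The balance of Raptor to Rictor message was taken as the log2 ratio of their TPM within each library. It was 0.45 ± 0.45 in daf-2 at 52 h and 0.04 ± 0.16 in the double mutant at 52 h, 0.26 ± 0.29 in daf-2 at 60 h and -0.04 ± 0.36 in the double mutant at 60 h (SD, n = 3). At 52 h the lowest daf-2 library, at 0.157, was just above the highest double mutant library, at 0.155. At 60 h the groups overlapped. This ratio was not tested.

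The rest of the pathway was read from a list of 35 genes, all of which were tested. Between genotypes at 52 h edgeR called 0 of 35 (1 at an unadjusted p under 0.05, and 0 by DESeq2), beside 0.635% of all genes tested. At 60 h it called 11 of 35, 2 higher and 9 lower in the double mutant, beside 34.4% of all genes in either direction. For time in daf-2 it called 6, of which 4 rose and 2 fell, beside 34.7% of all genes. For time in the double mutant it called 15, of which 5 rose and 10 fell, beside 41%. For the interaction it called 1 of 35, lower, beside 9.52%, and DESeq2 called 6. The median log2 fold change of the list was -0.25 for genotype at 60 h (-0.01 over all genes), 0.11 for time in daf-2 (0.07) and -0.30 for time in the double mutant (-0.0015). With the length offset the same medians were -0.02, 0.06 and -0.0072.

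The offset both removed and added calls on this list. For genotype at 60 h it called 3 higher and 7 lower, beside 34.9% of all genes, which were both higher calls and 7 of the 9 lower ones, with sbp-1 added. Between the times in daf-2 it called 8 higher and 6 lower, beside 45.4%, which were all 6 earlier calls and 8 more. Over time in the double mutant it called 7 higher and 4 lower, beside 37.8%, with 4 of the 5 rises and 4 of the 10 falls kept and 3 rises added. For the interaction it called 2 higher and 2 lower, beside 15.3%, where efk-1, atg-13 and ife-5 joined sinh-1. Among the calls without the offset, those made in each of the 12 fits without 1 library were 4 of 11 for genotype at 60 h, 4 of 6 for time in daf-2, 3 of 15 for time in the double mutant and 0 of 1 for the interaction.

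Other subunits of the complexes moved in different ways. mlst-8 encodes LST8, a subunit of both complexes, and it stayed between 8.81 and 11.6 CPM in all 12 libraries, with no comparison past the test (for genotype at 60 h the log2 fold change was -0.07, edgeR adjusted p = 0.718). sinh-1 encodes the SIN1 subunit of complex 2. It had 4.34, 6.07 and 6.31 CPM in daf-2 at 52 h and 6.70, 6.20 and 8.90 CPM in the double mutant at 52 h. It had 6.11, 8.74 and 5.46 CPM in daf-2 at 60 h and 3.77, 1.33 and 3.41 CPM in the double mutant at 60 h. The 3 double mutant libraries at 60 h lay below the libraries of every other group. Of all genes tested, 18.8% were lower without overlap between genotypes at 60 h alone, and 26.1% over time in the double mutant alone. The share of genes below every other group at once is not given here. sinh-1 was lower in the double mutant at 60 h by edgeR, with -1.25 (SE 0.335, adjusted p = 0.0151) as fitted and -0.78 with the offset (SE 0.203, adjusted p = 0.0106). It fell in the double mutant between the times, by 1.36 (SE 0.335, edgeR adjusted p = 0.00898) as fitted. With the offset that change was -0.80 (SE 0.202, edgeR adjusted p = 0.0082). The change over time differed between genotypes, with an interaction of -1.64 (SE 0.466, edgeR adjusted p = 0.0472), or -1.07 with the offset (SE 0.281, edgeR adjusted p = 0.0242). The interaction was called in 2 of the 12 fits that each left out 1 library, and not with the replicate block (edgeR adjusted p = 0.0772). Counts of sinh-1 were low, from 43 to 372 per library.

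Among AGC kinases, the class that complex 2 and PDK1 activate, all 5 genes listed were called for genotype at 60 h, 4 lower and 1 higher, beside 34.4% of all genes in either direction. With the offset 3 of the 5 were called, 2 lower and 1 higher, beside 34.9%. The gene sgk-1, the SGK homolog and a known target of complex 2 in the worm, was higher in the double mutant. It had 9.71, 8.27 and 8.40 CPM in daf-2 at 52 h and 12.7, 10.2 and 11.8 CPM in the double mutant at 52 h. It had 6.02, 3.62 and 3.62 CPM in daf-2 at 60 h and 10.8, 8.96 and 8.34 CPM in the double mutant at 60 h. The daf-2 libraries at 60 h lay below the libraries of every other group (the share of all genes that separate in this way is not given here). The difference between genotypes at 60 h was 1.09 on the log2 scale (SE 0.214, edgeR adjusted p = 0.00311) and 1.18 with the offset (SE 0.193, edgeR adjusted p = 0.000553), and each of the 12 fits without 1 library called it. On log2(TPM + 1), where the median of all genes was -0.301, it was 0.55 and was not called by limma (adjusted p = 0.0577). In daf-2, sgk-1 fell between the times by 0.99 (SE 0.213, edgeR adjusted p = 0.00313), or 0.97 with the offset (edgeR adjusted p = 0.00116), and was called in all 12 fits without 1 library. pdk-1, which encodes the activating kinase PDK1, was lower in the double mutant at 60 h, with -1.10 as fitted (edgeR adjusted p = 0.0319) and -0.63 with the offset (edgeR adjusted p = 0.02), and was called in 8 of 12 fits without 1 library. Its fall in the double mutant between the times, by 1.41 (edgeR adjusted p = 0.00996) or 0.89 with the offset (edgeR adjusted p = 0.003), was called in all 12. akt-1 and akt-2, which encode the Akt kinases of insulin signalling, had -0.86 (edgeR adjusted p = 0.0117) and -0.64 (edgeR adjusted p = 0.0285). With the offset akt-1 had -0.52 (edgeR adjusted p = 0.0178) and akt-2 had -0.32 and was not called (edgeR adjusted p = 0.175). In daf-2, akt-2 rose between the times by 0.81 (SE 0.2, edgeR adjusted p = 0.00708), or 0.86 with the offset (edgeR adjusted p = 0.00143). The protein kinase C gene pkc-2 was also lower at 60 h, with -0.62 (edgeR adjusted p = 0.0333), and it fell in the double mutant between the times by 0.65 (edgeR adjusted p = 0.0246). With the offset these were -0.07 and 0.01 and were not called. Without 1 library, the difference between genotypes at 60 h was called in 12 of 12 fits for akt-1, 9 for akt-2 and 7 for pkc-2. The calls of akt-2 and pkc-2 were both lost without daf-2 replicate 2, or without double mutant replicate 2 or 3, at 60 h.

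Of the 8 genes for amino acid sensing at the lysosome, sesn-1 (sestrin) was the 1 called for genotype at 60 h, with -0.80 (edgeR adjusted p = 0.0142) and -0.44 with the offset (edgeR adjusted p = 0.0371). ragc-1, the partner of RAGA-1 in the Rag heterodimer, had 69.7 ± 0.41 CPM in daf-2 at 52 h and 52.7 ± 12.6 CPM at 60 h (SD, n = 3), and the libraries did not overlap (the share of all genes lower in this way is not given here). That difference was -0.40 as fitted (edgeR adjusted p = 0.111) and -0.41 with the offset (edgeR adjusted p = 0.0243). For the double mutant, where ragc-1 had 60.2 ± 2.21 and 60.4 ± 4.64 CPM (SD, n = 3), it was 0.0044 (edgeR adjusted p = 0.987). On log2(TPM + 1), where the median of all genes fell by 0.402, it was -0.51 (limma adjusted p = 0.0237). The Ragulator genes lmtr-2 and lmtr-3, which anchor the Rag GTPases and have short transcripts, rose in the double mutant between the times by 1.26 (edgeR adjusted p = 0.0145) and 0.65 (edgeR adjusted p = 0.0381). The call of lmtr-3 was made in 3 of 12 fits without 1 library. With the offset lmtr-2 was called, with 0.49 (edgeR adjusted p = 0.0341), and lmtr-3 was not, with 0.06 (edgeR adjusted p = 0.762). The folliculin gene flcn-1 fell by 0.72 (edgeR adjusted p = 0.0184), and with the offset had -0.21 and was not called (edgeR adjusted p = 0.199).

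The RuvB-like genes ruvb-1 and ruvb-2 encode helicases that take part in assembly of TOR-family kinases. Both rose in daf-2 between the times, by 0.66 (SE 0.139, edgeR adjusted p = 0.00281) and 0.40 (SE 0.143, edgeR adjusted p = 0.0455). The rise of ruvb-1 was called in all 12 fits without 1 library, and that of ruvb-2 in 2 of 12, with values from 0.31 to 0.43. With the offset both were called in daf-2, at 0.69 (edgeR adjusted p = 0.000771) and 0.44 (edgeR adjusted p = 0.0176). ruvb-2 also rose in the double mutant, by 0.67 (edgeR adjusted p = 0.00452), or 0.79 with the offset (edgeR adjusted p = 0.000777), and was called in all 12 fits. There ruvb-1 had 0.34 as fitted (edgeR adjusted p = 0.0627) and was called with the offset, at 0.62 (edgeR adjusted p = 0.00277).

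Among the 10 translation genes, larp-1 (the LARP homolog, a complex 1 target in mammals) was lower in the double mutant at 60 h, with -1.65 as fitted (SE 0.492, edgeR adjusted p = 0.0239) and -0.71 with the offset (edgeR adjusted p = 0.0189). It was called in 8 of 12 fits without 1 library. ife-5, 1 of the cap-binding eIF4E genes, was lower with -0.92 (edgeR adjusted p = 0.0012), or -1.12 with the offset (edgeR adjusted p = 0.000261), and shared reads with a similar gene in 6 libraries, so its value is uncertain. ife-4 was higher with 0.64 (edgeR adjusted p = 0.0323), or 0.35 with the offset (edgeR adjusted p = 0.0441), and was called in 8 of 12 fits without 1 library. In daf-2 between the times, efk-1, the elongation factor 2 kinase, fell by 0.90 (SE 0.256, edgeR adjusted p = 0.0155) and ife-5 rose by 0.66 (edgeR adjusted p = 0.00536). With the offset they had -0.91 (edgeR adjusted p = 0.0164) and 0.63 (edgeR adjusted p = 0.00699). The efk-1 call was lost without daf-2 replicate 1 at 52 h, where its value was -0.62. Between the times in the double mutant, ifg-1 (eIF4G) fell by 1.27 (edgeR adjusted p = 0.0439), and ife-1 rose by 0.94 (edgeR adjusted p = 0.0154). With the offset ifg-1 had -0.24 and was not called (edgeR adjusted p = 0.27), and ife-1 had 0.51 (edgeR adjusted p = 0.0248). Without 1 library, ifg-1 was called in 3 of 12 fits, with values from -1.92 to -0.91, and ife-1 in 10 of 12.

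The autophagy kinase gene unc-51, whose product complex 1 restrains, was lower in the double mutant at 60 h with -1.47 (SE 0.439, edgeR adjusted p = 0.0237), or -0.77 with the offset (edgeR adjusted p = 0.0262). It also fell there between the times, by 1.55 (edgeR adjusted p = 0.0169), or 0.82 with the offset (edgeR adjusted p = 0.0184). Its partner atg-13 rose there by 0.50 (SE 0.181, edgeR adjusted p = 0.0444), or 0.60 with the offset (edgeR adjusted p = 0.0103). On log2(TPM + 1), where the median of all genes fell by 0.402, atg-13 had -0.01. The atg-13 call was made in 3 of 12 fits without 1 library, with values from 0.45 to 0.58. Of the genes for transcription and lipids, pha-4 (FoxA), skn-1 (the Nrf homolog) and sbp-1 (the SREBP homolog) fell in the double mutant between the times, by 1.09 (edgeR adjusted p = 0.0436), 1.14 (edgeR adjusted p = 0.0241) and 1.25 (edgeR adjusted p = 0.0184). The lysosome regulator hlh-30 (the TFEB homolog) fell by 1.04 (edgeR adjusted p = 0.0438). Of these 4, skn-1 was called with the offset, at -0.54 (edgeR adjusted p = 0.0356), while pha-4, sbp-1 and hlh-30 had -0.67, -0.32 and -0.51 and were not. Without 1 library, pha-4 was called in 3 of 12 fits, with values from -1.58 to -0.77, and hlh-30 in 3 of 12, from -1.34 to -0.73. skn-1 was called in 9 and sbp-1 in 10 of the 12. For pha-4, hlh-30, ifg-1 and lmtr-3 the smallest change was the one without double mutant replicate 2 at 60 h.

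**Figure D5:**
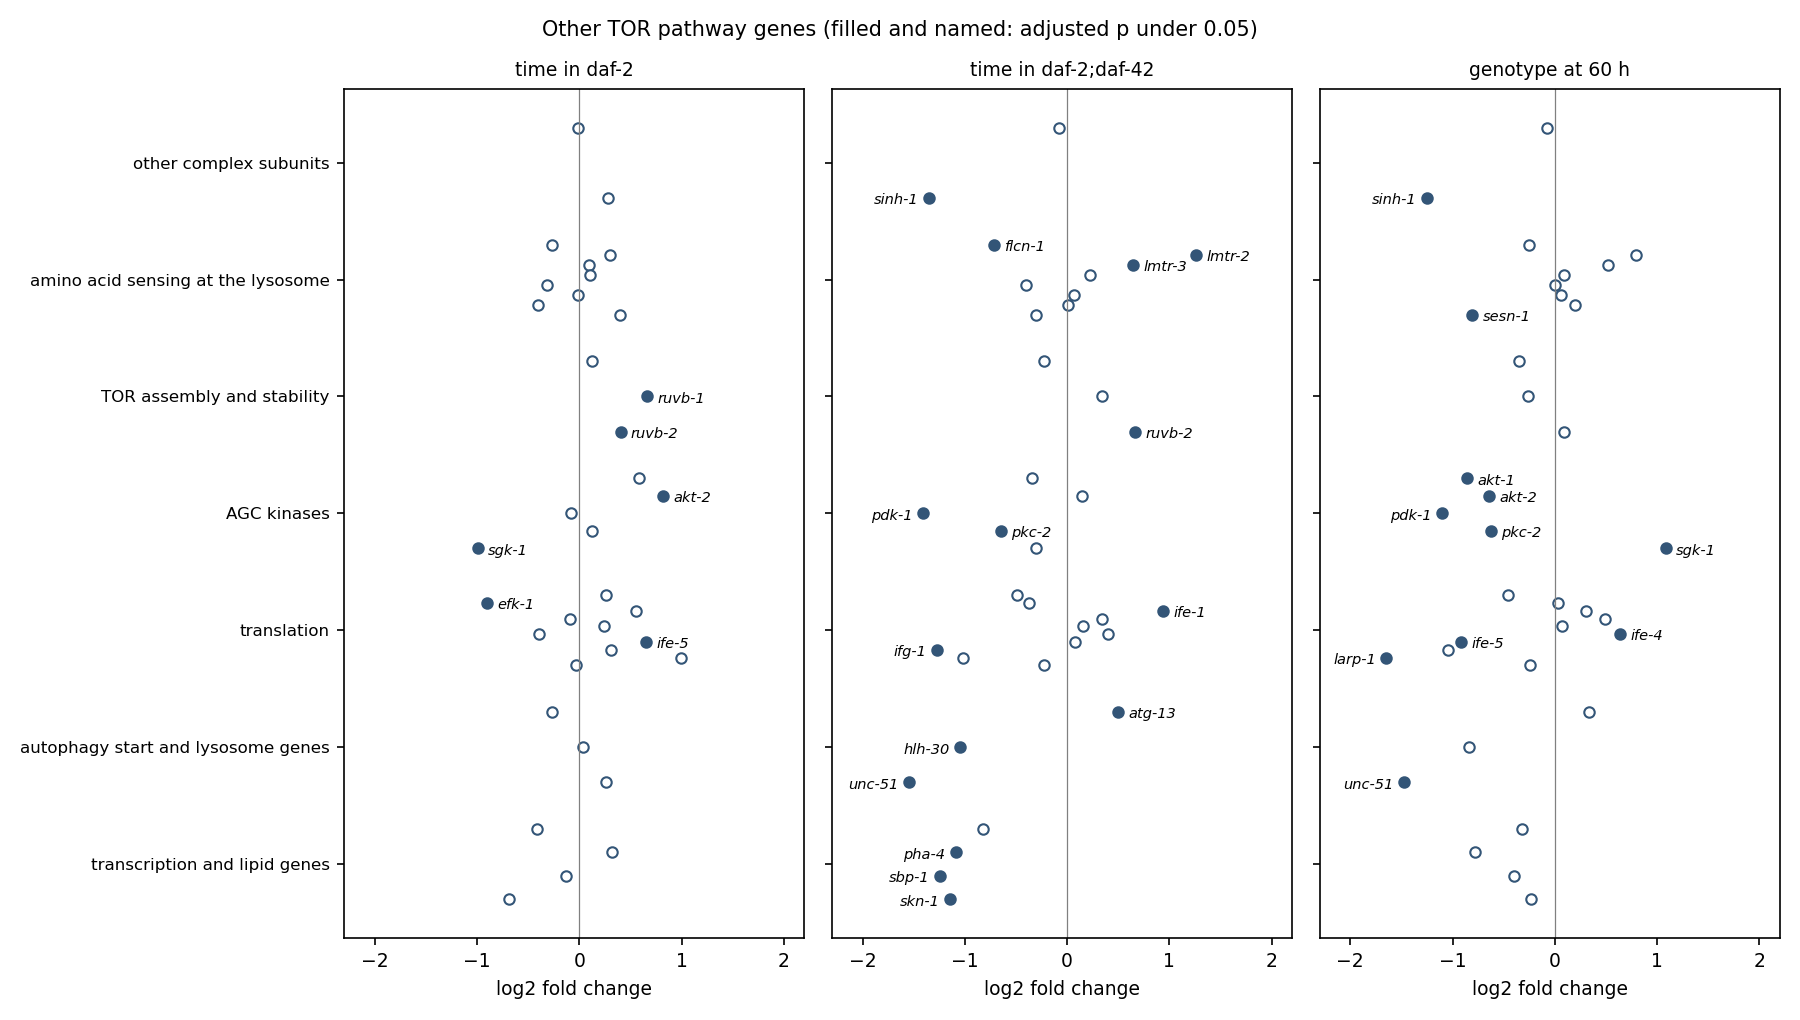
Log2 fold changes of the 35 other TOR pathway genes, by list, in 3 comparisons; filled and named symbols have an edgeR adjusted p under 0.05, and no length correction was applied. sgk-1 lies at -0.99 for time in daf-2 and at 1.09 for genotype at 60 h, and sinh-1 lies at -1.36 and -1.25 in the other comparisons in which it is named.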

How the data were processed

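Per the labels' protocols, RNA of whole animals was extracted with TRIzol and sequenced as stranded polyA libraries (TruSeq). The authors deposited 1 table per library, with an estimated count, a TPM value, a length and an effective length (another unit, in bases) for each of 36172 transcripts. The tables were made with kallisto 0.46.1 on WBcel235, per the submitters' processing notes. The transcriptome release and the strand setting are not given in the sources used here. The members and lists were chosen with earlier results of these data known.

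Transcripts were summed to 22113 genes with the Ensembl WBcel235 annotation (31502 matched by identifier, 4581 by sequence name, and 89 did not match). Of the former, 33.4% had the annotated exon length, so the releases differ. Coordinates are from that annotation, and lengths are from the deposited tables, weighted by abundance. The estimated counts, summed by gene, were then rounded. Reads were counted as shared where a gene's sum in a library was not whole (tolerance 0.01).

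All 12 libraries entered 1 edgeR 4.0.16 quasi-likelihood fit (R 4.3.3) with a mean for each of 4 groups, TMM scaling and filterByExpr, which left 16371 genes. A Benjamini-Hochberg adjusted p under 0.05 over all of them was a call. The estimates are log2 fold changes, and CPM is scaled by TMM. The length offset removes a lowess trend (span 0.3) of each library's deviations with log transcript length. Alternatives were a replicate block, RLE and upper-quartile scaling, no filter or at least 50 counts in 3 libraries, DESeq2 1.42.0, fits of 2 groups, limma 3.58.1 on log2(TPM + 1) or log2(TPM + 0.1) with a filter of TPM 1 in 3 libraries or none, and leaving out each library. The code was tested on simulated data.

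Named were all 6 members, the called genes of the pathway list, mlst-8, sinh-1 and ragc-1 in any case, the 3 genes most like each member, and daf-42. Same-numbered libraries had correlated deviations (r over 0.1) in all 3 pairs for genotype at 52 h (0.249, 0.136 and 0.198) and for time in the double mutant (0.109, 0.408 and 0.136). Any pairing in these comparisons is read from the data alone, since the labels give only a number. The main fit did not use it, and the replicate block was an alternative setting only. Replicates of a group differed by far more than sampling noise (chi-square divided by its degrees of freedom: 13.7 to 475.2). Sequences of the genes were not used here.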

Additional observations from a re-analysis of the deposited data

Results flagged for a closer look

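For sinh-1 the test of the difference in change over time between the genotypes passed the threshold, and the call did not hold in most other settings. The interaction was -1.64 on the log2 scale (SE 0.466, edgeR adjusted p = 0.0472), with 0.28 in daf-2 and -1.36 in the double mutant. All 3 double mutant libraries at 60 h lay below the other 9. Against the daf-2 libraries at 60 h alone, 18.8% of all genes tested were lower without overlap. The share of genes below all 9 is not given here. The gene is 2419 bases long, and the length index of those 3 libraries was -0.19, -2.59 and -1.35. With the length offset the interaction was -1.07 (edgeR adjusted p = 0.0242). It was called in 9 of the 23 other settings run. Among these were 2 of the 12 fits without 1 library, in which it ran from -1.88 to -1.28, and with the replicate block it was not called (edgeR adjusted p = 0.0772). The part of dead larvae in this result was not tested.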

How the results depend on the processing

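Counts of members called moved under these settings. Between genotypes at 60 h (3) they were 0 with the length offset, 0 with the offset and the replicate block, and 0 in a fit of only those groups, and 0 to 4 over the fits that left out 1 library. For time in daf-2 (0) they were 1, 1 and 0 to 1, with the 1 found without double mutant replicate 2 at 60 h. For time in the double mutant (3) they were 1 with the offset, 1 with offset and block, 1 in a fit of only those groups, 5 with limma on log2(TPM + 0.1), and 0 to 3 over the fits without 1 library. For the interaction (0) they were 2 with DESeq2 and 0 to 4 over the fits without 1 library (2 without daf-2 replicate 3 and 4 without double mutant replicate 1, both at 60 h). For genotype at 52 h the count was 0 in all settings run. The replicate block alone gave 0, 3, 0, 2 and 0 members in the 5 comparisons. For genotype at 60 h and time in daf-2 the same-numbered libraries share only a number (for genotype at 60 h, r was 0.24, -0.627 and 0.123), and there the block moved daf-15 to an adjusted p of 0.0491 and rict-1 to 0.0852 for genotype at 60 h. Of the 12 libraries, 6 correlated best with their own number.

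Signs turned as follows, with the offset and with the offset and block. For genotype at 52 h, let-363 was -0.052 and -0.052, daf-15 -0.069 and -0.064, and rsks-1 -0.022 and -0.022. Between genotypes at 60 h let-363 was 0.13 and 0.13. For time in the double mutant, let-363 was 0.32 and 0.32, daf-15 0.029 and 0.019, rsks-1 0.46 and 0.46, ragc-1 -0.14 and -0.15, and pkc-2 0.0061 and 0.0065. For the interaction let-363 was 0.18 and 0.19, and for time in daf-2 mlst-8 was 0.030 and 0.032.

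With limma on log2(TPM + 1), on log2(TPM + 0.1) and without a filter, the median of all genes moved to -0.301, -0.37 and -0.145 for genotype at 60 h, and signs turned for the following genes. Between genotypes at 60 h, rheb-1 was -0.28, -0.29 and -0.28, raga-1 -0.29, -0.30 and -0.29, and ragc-1 -0.19, -0.20 and -0.19. For time in daf-2 raga-1 was -0.042, -0.043 and -0.042. For time in the double mutant, rheb-1 was -0.36, -0.38 and -0.36, raga-1 -0.29, -0.30 and -0.29, ragc-1 -0.51, -0.52 and -0.51, and atg-13 -0.014, -0.014 and -0.014. For the interaction, rheb-1 was -0.16, -0.17 and -0.16, raga-1 -0.25, -0.25 and -0.25, and ragc-1 -0.0061, -0.0077 and -0.0061. In that table of genes, the share of higher among called genes also fell: for genotype at 60 h 1512 of 5618 were higher, against 2844 of 5626 in the edgeR fit. For time in the double mutant ragc-1 was also -0.0031 with the block, -0.013 with RLE scaling and -0.013 with DESeq2.

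Over the fits without 1 library, time in daf-2 ran from -0.071 to 0.59 for daf-15, -0.083 to 0.78 for rict-1, -0.046 to 0.14 for raga-1 and -0.054 to 0.050 for mlst-8. mlst-8 ran from -0.074 to 0.057 for genotype at 52 h, -0.17 to 0.030 for genotype at 60 h, -0.17 to 0.0023 for time in the double mutant and -0.16 to 0.047 for the interaction. ragc-1 ran from -0.059 to 0.054 for time in the double mutant. Apart from the offset, whose construction removes the trend with length, the cause of these shifts was not tested. Of all results for single genes and settings, 1462 kept their direction and side of the threshold, 228 lost a call, 31 gained one and 70 turned sign.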
